A study of Homo sapiens with 14 samples.

Results

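The insulin-like growth factor (IGF) axis was examined in 2 human prostate cancer cell lines through 10 genes chosen by symbol: the binding proteins IGFBP1 to IGFBP7, the receptors IGF1R and IGF2R, and the docking protein IRS2. All 10 were found in both expression tables, of 44591 genes listed for LNCaP cells and 24199 features listed for DU145 cells. LNCaP is an androgen-responsive line, and DU145 is a line that grows without androgens. For LNCaP, 1 library of parental cells, grown in RPMI medium with fetal bovine serum, stood against 1 library of LNCaP-ENZ cells, a derived line selected for resistance to the anti-androgen drug enzalutamide, kept at 20 µM of the drug and described as exposed for 30 days. For DU145, grown in DMEM with fetal bovine serum, 3 libraries with a non-targeting control shRNA (shCON) stood against 3 libraries with an shRNA against the neural transcription factor PAX6 (shPAX6), both delivered by lentivirus and kept under puromycin as stable lines. Which of the PAX6 shRNAs was sequenced is not given in the sources used here. Nothing in the labels says that same-group libraries came from separate cultures, so the p-values measure the spread between these libraries, which may be technical. A further 6 ATAC-seq samples of the 14 in the series were not analysed here.

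IGF-I and IGF-II are secreted peptides that activate IGF1R, a tyrosine kinase, whose signal passes through docking proteins such as IRS1 and IRS2 to PI3K and AKT and restrains FOXO transcription factors. The binding proteins hold IGFs outside the cell with high affinity, keep them from the receptor or carry them to it, and release them when proteases such as PAPPA cut them. IGF2R, which also ferries lysosomal enzymes as the mannose 6-phosphate receptor, takes IGF-II into the cell for degradation. In prostate tissue the axis is known as a growth and survival pathway that interacts with androgen signalling. The 10 genes were picked with values of both contrasts in view, so their values are given as a description, and nothing about the axis is supported by how many of them differed.

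The start sites of the members that stand out are shown first, because 3 of these genes, IGFBP3, IGF1R and IRS2, were past 2-fold in LNCaP and IGFBP4 had the largest difference in DU145. Each sequence is the 250 bases before the RefSeq gene start on GRCh38.p14, written 5′ to 3′ on the strand of the gene, with matches to a TATA motif (TATAAA or TATATA) or a GC box (GGGCGG) on either strand in capitals.
IGFBP3, chr7:45921273-45921522 (minus strand): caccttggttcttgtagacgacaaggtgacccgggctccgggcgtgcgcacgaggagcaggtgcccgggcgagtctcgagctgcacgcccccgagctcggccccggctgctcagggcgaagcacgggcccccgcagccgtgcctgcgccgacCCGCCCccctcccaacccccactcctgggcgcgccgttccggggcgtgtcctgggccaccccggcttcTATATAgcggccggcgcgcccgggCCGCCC
IGF1R, chr15:98648289-98648538 (plus strand): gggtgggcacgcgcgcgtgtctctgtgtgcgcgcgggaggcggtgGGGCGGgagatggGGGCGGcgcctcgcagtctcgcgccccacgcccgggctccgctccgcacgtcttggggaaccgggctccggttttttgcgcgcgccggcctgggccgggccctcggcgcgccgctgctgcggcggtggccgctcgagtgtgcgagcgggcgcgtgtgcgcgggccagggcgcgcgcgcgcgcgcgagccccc
IRS2, chr13:109786584-109786833 (minus strand): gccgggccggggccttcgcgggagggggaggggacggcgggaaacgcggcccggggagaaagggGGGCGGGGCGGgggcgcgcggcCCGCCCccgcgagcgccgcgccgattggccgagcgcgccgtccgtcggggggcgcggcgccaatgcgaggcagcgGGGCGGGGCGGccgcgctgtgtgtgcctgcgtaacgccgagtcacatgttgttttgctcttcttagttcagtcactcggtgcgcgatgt
IGFBP4, chr17:40443200-40443449 (plus strand): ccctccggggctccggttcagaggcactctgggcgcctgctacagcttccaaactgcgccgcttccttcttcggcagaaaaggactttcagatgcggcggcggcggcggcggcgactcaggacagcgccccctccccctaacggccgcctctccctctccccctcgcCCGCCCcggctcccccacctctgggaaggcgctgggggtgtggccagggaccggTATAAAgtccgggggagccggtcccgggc

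The 4 start regions were GC-rich, from 71.6% in IGFBP4 to 81.2% in IGF1R, against a median of 58% over 35114 RefSeq promoters. IGFBP4 carried TATAAA at positions -29 to -24 from the start, and IGFBP3 carried the variant TATATA at -30 to -25. Over all promoters, 10.7% of windows of this length held TATAAA and 3.73% held TATATA. IGF1R and IRS2 held neither motif, with 2 GC boxes in IGF1R and 5 in IRS2, where 2 adjoining pairs share a base, and 42.6% of all promoters held at least 1. Of the other members, 4 were in the promoter table. IGF2R held 6 GC boxes and 3 E-boxes (CACGTG, in 6.35% of promoters), and IGFBP6 held the FOXO motif GTAAACA (in 2.98%). The STAT motif TTCNNNGAA (6.57%) was in none of the matched windows. IGFBP2 had more than 1 RefSeq start, and the androgen response half-site AGAACA (12.4%) was in its windows 1 and 3 and in no other matched window. IGFBP1 and IGFBP7 had no entry. These are matches of letters and not shown binding sites.

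Members differed in which of them each line expressed. The levels compared between genes are per length: TPM (transcripts scaled to a fixed total per library) for LNCaP, and values treated as FPKM (fragments per kilobase, scaled by library size) for DU145, 2 scales that were normalised separately. In parental LNCaP cells, IGFBP2, a binding protein with a preference for IGF-II, was the highest of the 10 at 35.5 TPM, followed by IGF2R at 21.0 and IGF1R at 11.8 TPM. IGFBP3, the main IGF carrier of the circulation, stood at 3.04 TPM, IGFBP5 at 1.95, IRS2 at 1.44 and IGFBP4 at 1.14 TPM. IGFBP7, a related protein with low affinity for IGFs, and IGFBP6, which prefers IGF-II, were under 0.4 TPM, with 10 and 4 counts. In DU145 shCON cells the order was another one, with IGFBP4 (50.2 to 54.0 FPKM) above IGFBP6 (31.6 to 38.4), IGF2R (12.1 to 15.5), IGFBP3 (6.82 to 7.46) and IGF1R (4.07 to 5.42). The ranges of these neighbours did not overlap, whereas IRS2 (3.24 to 4.36) overlapped with IGF1R above it and with IGFBP2 (3.10 to 4.17) below it.

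IGFBP genes lie in the genome partly as neighbours, and neighbours did not always share expression. IGFBP1 and IGFBP3 lie 18.6 kb apart on chromosome 7 (GRCh37), and IGFBP1, a liver and decidua protein under insulin control, had 0 counts in both LNCaP libraries, which allows up to 0.147 (parental) and 0.167 (LNCaP-ENZ) in CPM, counts scaled to a common library total, and was listed at 0 in all 6 DU145 libraries. IGFBP2 and IGFBP5 lie 7.67 kb apart on chromosome 2. Both were read in LNCaP, with 1398 and 238 counts in parental cells, but IGFBP5, a matrix-associated binding protein, was listed at 0 in all 6 DU145 libraries while IGFBP2 was at 2.81 FPKM or more in each. IGFBP7 reached at most 0.126 FPKM in DU145 and was listed at 0 in 3 of the libraries. It overlaps POLR2B on the opposite strand, and the strand setting of the counting is not given in the sources used here.

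The first comparison asked how cells kept under enzalutamide differ from their parents. IGFBP3 was 33.4-fold higher in the LNCaP-ENZ library, and IGF1R was 4.68-fold and IRS2 3.16-fold lower. With 1 library per arm there is no replicate check, and the intervals given cover counting error only. In RNA from a whole culture, fewer cells expressing a gene and less RNA per cell cannot be told apart.

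IGFBP3 (chr7:45951844-45960871, GRCh37, minus strand) had 157 counts in parental and 4596 in LNCaP-ENZ cells, or 3.04 and 95.7 TPM. The log2 ratio of CPM was 5.04 (95% exact counting interval 4.83 to 5.30), which ranked 3 of 14767 genes with a mean of at least 1 CPM. No annotated gene overlaps it. IGFBP2 (chr2:217497551-217529159, plus strand) had 1398 and 872 counts, a log2 ratio of -0.49 (-0.61 to -0.37). IGFBP5 (chr2:217536828-217560272, minus strand) had 238 and 156 counts, a log2 ratio of -0.42 (-0.72 to -0.12). IGFBP4 (chr17:38599676-38613982, plus strand), a strong inhibitor of IGF action that PAPPA cleaves, had 50 and 23 counts, a log2 ratio of -0.88 with a wide interval of -1.71 to -0.19. IGFBP7 went from 10 counts to 0, which is 2.92-fold lower if the 0 is set to a floor of 3 counts. The counting interval of its log2 ratio allowed less, with an upper limit of -0.97. IGFBP6, with 4 and 2 counts, was too shallow for a ratio to be read (interval -4.28 to 1.99).

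The make-up of the binding protein transcripts was thus a different one in each LNCaP library. The 7 IGFBP genes summed to 42.3 TPM in parental and to 122 TPM in LNCaP-ENZ cells. IGFBP2 made up 84.1% of the sum in parental and 19.6% in LNCaP-ENZ cells. IGFBP3 went from 7.20% to 78.7%. The TPM of IGFBP2 itself was 35.5 and 23.8, so most of the shift in shares lay in IGFBP3.

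**Figure D1:**
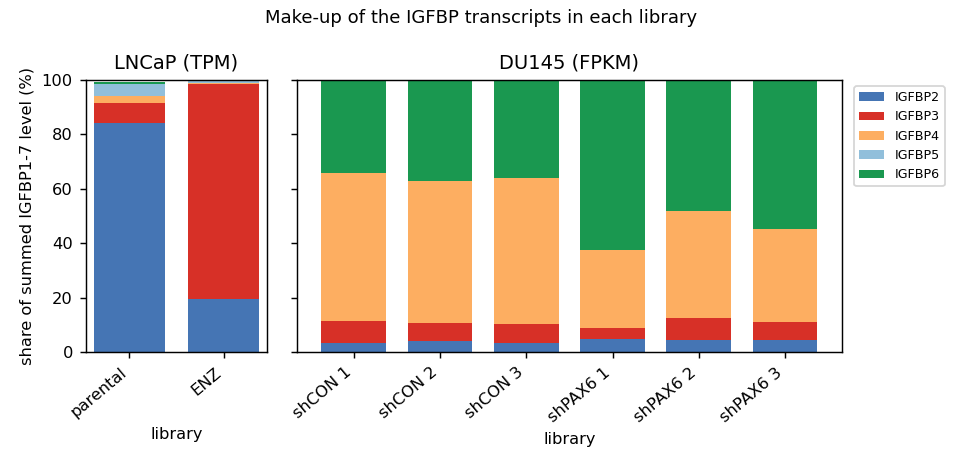
Share of each binding protein gene in the summed level of IGFBP1 to IGFBP7 (vertical axis, %), for 2 LNCaP libraries (TPM) and 6 DU145 libraries (FPKM), with 1 bar per library and IGFBP1 and IGFBP7 too low to draw. IGFBP2 fills 84.1% of the parental bar and IGFBP3 78.7% of the LNCaP-ENZ bar, while IGFBP4 and IGFBP6 fill most of each DU145 bar.

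Of the receptors, IGF1R (chr15:99191768-99507759, plus strand) had 2830 counts in parental cells and 530 in LNCaP-ENZ cells, or 11.8 and 2.37 TPM. Its log2 ratio was -2.22 (-2.36 to -2.09), which ranked 107 from the lowest of the 14767 genes. IGF2R (chr6:160390131-160532536, plus strand) had 5793 and 4695 counts, 21.0 and 18.3 TPM. Its log2 ratio of -0.11 (-0.17 to -0.06) was near the median of all genes, -0.15, and turned to 0.03 with TMM scaling and to 0.04 when that median was set to 0, so no direction is given for it. In parental cells IGF2R had 1.78 times the TPM of IGF1R, and in LNCaP-ENZ cells 7.72 times. IRS2 (chr13:110406184-110438914, minus strand), which couples the receptors to PI3K, had 198 and 55 counts, a log2 ratio of -1.63 (-2.12 to -1.22), ranking 329 from the lowest.

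**Figure D2:**
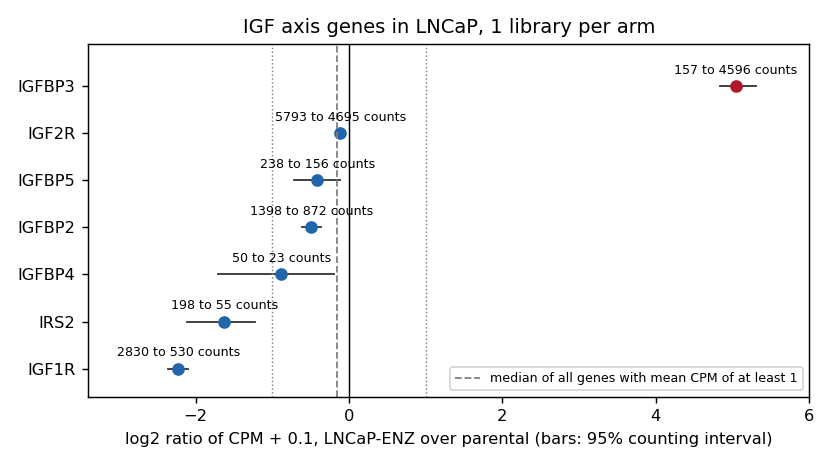
Log2 ratio of CPM + 0.1 between LNCaP-ENZ and parental cells (horizontal axis) for the 7 IGF axis genes with a mean of at least 1 CPM, 1 library per arm. Bars are 95% exact counting intervals, labels give the counts, dotted lines mark 2-fold and the dashed line the median of all genes (-0.15); IGFBP3 stands alone at 5.04 and IGF1R and IRS2 lie below -1.

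Of the 10 members, 7 had a mean of at least 1 CPM, and 3 of these were past 2-fold, 1 higher and 2 lower. Over all 14767 such genes, 11.4% were past 2-fold, 1.84% higher and 9.57% lower. The median log2 ratio was -0.49 over the 7 members. The ratio moved with gene length: its median was -0.40 over 2294 genes of at least 6000 bases, of which 15.6% were past 2-fold lower, and -0.01 over 2584 genes under 1500 bases. The Spearman rho of ratio and length was -0.24, taken across genes of 1 pair of libraries, and is a description only. IGF1R, IGF2R, IRS2 and IGFBP5 are all over 6000 bases in the table. After a loess correction for length, chosen after the data were seen, the log2 ratio was -1.70 for IGF1R, -1.20 for IRS2, -0.02 for IGFBP5, 0.42 for IGF2R and 5.18 for IGFBP3. The part of length in these ratios was not tested beyond that correction.

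The rest of the pathway in LNCaP was described by 55 genes in 6 lists: ligands and other receptors, IGFBP proteases and their inhibitors, IGFBP-related proteins, IGF2 mRNA-binding proteins, adaptors and brakes of the receptors, and the PI3K and FOXO arm. Of these, 40 had a mean of at least 1 CPM. Before the length correction, 0 of the 40 were past 2-fold higher and 6 were past 2-fold lower, beside 1.84% and 9.57% of all genes. The ratio was above 0 for 9 and below 0 for 31, with a median of -0.50, beside -0.15 over all genes. The lists were chosen with earlier results of these data known, so nothing is read from these counts or from those by list below. The ligands themselves were scarce, with 10 and 3 counts of IGF1 and 53 and 27 counts of IGF2 (log2 ratio -0.75, -1.51 to -0.09).

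The genes past 2-fold lower came from different steps of the pathway. IRS1, the other main docking protein, had 101 and 19 counts, a log2 ratio of -2.12 (-3.01 to -1.50). FOXO1, a transcription factor that AKT holds out of the nucleus, had 429 and 95 counts, a log2 ratio of -1.97 (-2.32 to -1.66). Others were IGFBPL1 (43 and 11 counts, -1.63), a protein related to the IGFBPs, IGF2BP3 (476 and 165 counts, -1.33), which binds IGF2 mRNA, and the protease ADAM12 (83 and 34 counts, -1.06). The insulin receptor INSR had 1601 and 1165 counts, a log2 ratio of -0.27 (-0.38 to -0.16), which turned to 0.21 under the length correction.

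On the higher side, the largest ratios were under 2-fold before the length correction. PAPPA, the protease that frees IGFs from IGFBP4, had 27 and 42 counts, a log2 ratio of 0.78 (0.10 to 1.58). GRB10, an adaptor that dampens signalling from IGF1R and the insulin receptor, had 8319 and 11452 counts, a log2 ratio of 0.65 (0.61 to 0.69). STC2, an inhibitor of PAPPA, had 1062 and 1170 counts (0.33). The adaptors and brakes as a list had 5 of 16 genes higher and 11 lower, none past 2-fold before the length correction. The PI3K and FOXO arm had 1 of 10 higher and 9 lower. Among the IGFBP proteases and their inhibitors, 2 of 6 were higher and 4 lower, and among the IGFBP-related proteins 1 of 4 was higher and 3 lower. Of the ligands and other receptors with enough counts, 3 of 3 were lower (IRS1, IGF2 and INSR), and of the IGF2 mRNA-binding proteins only IGF2BP3 had a mean of at least 1 CPM.

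The second comparison asked what differed in DU145 after knockdown of PAX6. IGFBP4 was lower in every shPAX6 library than in every shCON library, by about 1.7-fold, and IGFBP3 likewise by a smaller amount. Such separation was common, with 26.7% of all 13574 features without overlap between the groups and 20.0% lower in shPAX6, so nothing is read from it. The receptors, IRS2, IGFBP2 and IGFBP6 varied more among the shPAX6 libraries than between the groups. Differences are log2(FPKM + 0.1) of shPAX6 minus shCON with the standard error (SE) from limma, n = 3 libraries a group. PAX6 itself was at 0.839, 1.23 and 1.57 FPKM in shCON libraries 1, 2 and 3 and at 0.0153, 0.274 and 0.0778 FPKM in the shPAX6 libraries, without overlap. Its difference was -2.69 ± 0.49 and its adjusted p 0.054 (limma), short of the threshold of 0.05. PAX6 overlaps ELP4 on the opposite strand.

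IGFBP4 was at 50.2, 54.0 and 53.4 FPKM in shCON libraries 1 to 3 and at 37.1, 24.8 and 29.9 FPKM in shPAX6 libraries 1 to 3. The groups did not overlap, with means of 52.6 ± 2.07 and 30.6 ± 6.16 FPKM (SD, n = 3) and a log2 difference of -0.80 ± 0.17. IGFBP3 was at 7.46, 6.82 and 6.92 FPKM in shCON and at 4.99, 5.00 and 5.82 FPKM in shPAX6, again without overlap, a difference of -0.42 ± 0.16. IGFBP6 was at 31.6, 38.4 and 36.2 FPKM in shCON and at 81.3, 30.5 and 47.9 FPKM in shPAX6. Its groups overlapped, since shPAX6 library 2 was below every control and library 1 far above them, and the difference was 0.48 ± 0.32. IGFBP2 was at 3.10, 4.17 and 3.26 FPKM in shCON and at 6.43, 2.81 and 3.78 FPKM in shPAX6, with overlapping groups and a difference of 0.23 ± 0.31 that turned to -0.09 without shPAX6 library 1.

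IGFBP4 and IGFBP6, the leading binding proteins of DU145, stood in opposite order in the groups. The ratio of IGFBP4 to IGFBP6 within a library, in FPKM, was 1.59, 1.41 and 1.48 in the shCON libraries and 0.456, 0.813 and 0.625 in the shPAX6 libraries. IGFBP4 made up 52.2% to 54.3% of the summed IGFBP level in shCON and 28.5% to 39.3% in shPAX6. IGFBP6 made up 34.2% to 37.1% and 48.3% to 62.6%. The FPKM of IGFBP6 itself overlapped between the groups, so its larger share does not show a higher level in each shPAX6 library. In shPAX6 library 2 it was at 30.5 FPKM, below every control, while IGFBP4 was at 24.8 FPKM. Both genes have GC-rich transcripts, 62.6% GC for IGFBP4 and 64.1% for IGFBP6, with lengths of 2205 and 1177 bases. IGFBP3 made up 3.84% to 8.07% over all 6 libraries, and its share overlapped between the groups.

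**Figure D3:**
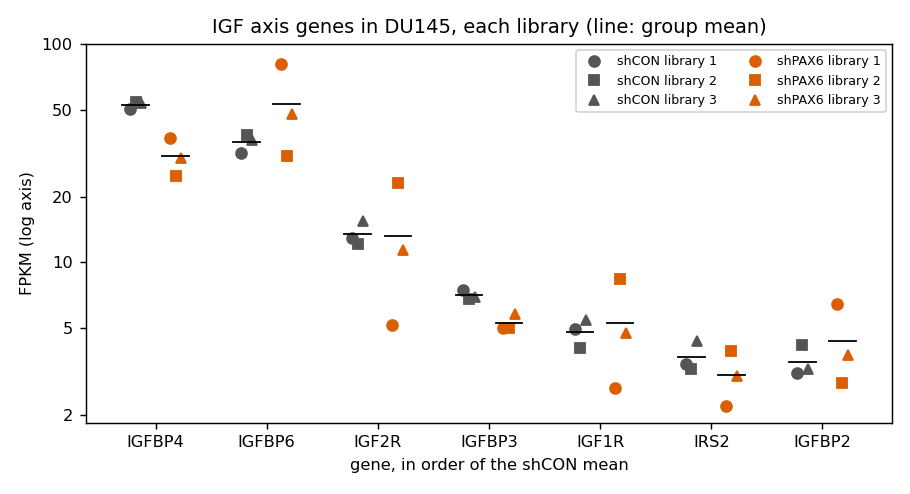
FPKM (log axis) of the 7 IGF axis genes with a mean of at least 0.5 FPKM in 3 shCON (grey) and 3 shPAX6 (orange) DU145 libraries, with the same marker for the same library number and a line at each group mean. IGFBP4 and IGFBP3 have no shPAX6 library within the range of the controls, while IGF2R spans 5.17 to 23.1 FPKM among the shPAX6 libraries.

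IGF1R was at 4.93, 4.07 and 5.42 FPKM in shCON and at 2.65, 8.41 and 4.74 FPKM in shPAX6. The shPAX6 libraries lay on both sides of the controls and the difference was -0.01 ± 0.39. IGF2R was at 13.0, 12.1 and 15.5 FPKM in shCON and at 5.17, 23.1 and 11.4 FPKM in shPAX6, a difference of -0.27 ± 0.47, with library 1 under and library 2 over every control. IRS2 was at 3.42, 3.24 and 4.36 FPKM in shCON and at 2.20, 3.93 and 3.00 FPKM in shPAX6, a difference of -0.29 ± 0.26. The signs of the receptor differences rested on single libraries: without shPAX6 library 1 they were 0.40 for IGF1R and 0.27 for IGF2R, and without shPAX6 library 2 they were -0.42 and -0.80. The ratio of IGF2R to IGF1R within a library, in FPKM, was 2.63 to 2.97 in shCON and 1.95 to 2.75 in shPAX6, so it overlapped between the groups and spread less than either receptor did among the shPAX6 libraries.

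The shPAX6 libraries themselves differed by transcript length. Set against the shCON mean, the values of 12009 features in shPAX6 library 1 were lower for longer transcripts (Spearman rho -0.47) and those in library 2 were higher for longer ones (0.42), with -0.13 in library 3. IGF1R and IGF2R, with transcripts of 12235 and 14231 bases, were low in library 1 and high in library 2. IRS2, at 8156 bases, was low in library 1 but within the range of the controls in library 2. The short IGFBP6 was high in library 1 and low in library 2, and so was IGFBP2, whose transcript of 4414 bases is longer than those of IGFBP4 and IGFBP3. IGFBP4 and IGFBP3, at 2205 and 2631 bases, were below the shCON mean in all 3. The relation with GC content also differed between libraries, from a rho of -0.64 in shPAX6 library 2 to 0.35 in shCON library 2. With values corrected for both, an alternative added after the data were seen, the difference was -0.51 for IGFBP4, 0.67 for IGFBP6 and -0.24 for IGFBP3. With the GC correction alone, which was planned, it was -0.43, 0.86 and -0.21 in the same order. None of the 3 passed the threshold there (limma, adjusted p 0.12, 0.14 and 0.41). The part of length and GC content in the spread of the receptors was not tested otherwise.

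**Figure D4:**
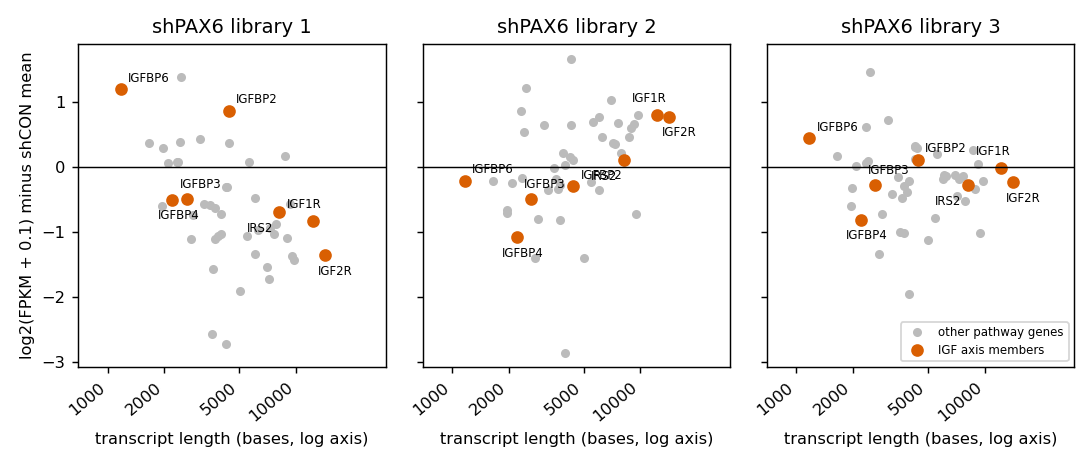
Log2(FPKM + 0.1) of each shPAX6 library minus the shCON mean (vertical axis) against transcript length in bases (log axis), for 7 IGF axis members (orange) and the other tested pathway genes with a known length (grey), 1 panel per library. The long IGF1R and IGF2R lie below 0 in library 1 and above it in library 2, and IGFBP4 and IGFBP3 lie below 0 in all 3 panels.

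Of the 10 members, 7 had a mean of at least 0.5 FPKM and were in the fit, and 0 of these 7 passed the adjusted threshold (limma, adjusted p from 0.071 for IGFBP4 to 0.99 for IGF1R), with 2 at an unadjusted p under 0.05. Over all 13574 features, 18.3% had an unadjusted p under 0.05 and 1.20% passed the adjusted threshold, 0.177% higher and 1.02% lower. The groups did not overlap for 2 of the 7 members, both lower, against 26.7% of all features, 6.70% higher and 20.0% lower. The median difference was -0.27 over the 7 members and -0.12 over all features. Since the members were chosen with this contrast known, nothing is read from these counts.

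Over the 6 libraries, the log2 profile of IGFBP4 was most like those of FNDC4 (Pearson r 0.999), IMPDH2 (0.998) and IFITM3 (0.997). These are 3 of many, since 730 of the 13574 features had an r over 0.9 with IGFBP4.

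Among the 55 other pathway genes, 40 were tested in DU145, 0 were called higher and 2 were called lower, or 5.00% lower beside 1.02% of all features. The lists were chosen with earlier results of these data known, and the 2 calls became 0 under several alternatives. Nothing is therefore read from this share or from the list counts that follow. CCN5, listed as WISP2, a secreted protein of the CCN family once grouped with the IGFBPs, fell from 10.9, 11.8 and 11.7 FPKM in shCON to 5.24, 4.27 and 4.45 FPKM in shPAX6, a difference of -1.29 ± 0.16 (limma, adjusted p = 0.020). SOCS2, an inhibitor of cytokine signalling that is induced through STAT5 and binds IGF1R, fell from 28.7, 28.2 and 35.6 FPKM to 14.2, 17.4 and 15.1 FPKM, a difference of -0.98 ± 0.15 (limma, adjusted p = 0.038). Neither group of values overlapped for these genes, and neither call held without any 1 of the 3 shCON libraries or shPAX6 library 3, after median centring or with the replicate number as a block. CCN5 was also lost with quantile normalization (limma, adjusted p = 0.054), and SOCS2 without the filter on low values (0.067) and with eBayes without a trend (0.052).

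The other 38 tested pathway genes did not pass the threshold. Over all 40, CCN5 and SOCS2 included, the estimate was above 0 for 10 and below 0 for 30, with a median of -0.25 beside -0.12 over all features. An unadjusted p under 0.05 was found for 12 of the 40, beside 18.3% of all features. The groups did not overlap for 4 with higher and 12 with lower values, beside 6.70% and 20.0% of all features. By list, the adaptors and brakes had 14 of 16 estimates below 0, with a median of -0.37, and 7 of them, SOCS2 included, without overlap. The PI3K and FOXO arm had 3 of 9 above 0 and 6 below (median -0.21), and the IGFBP-related proteins 3 of 7 above and 4 below (median -0.23). The IGFBP proteases and their inhibitors, with 4 tested (median -0.03), and the IGF2 mRNA-binding proteins, with 2 tested (median -0.01), had no gene without overlap. Of the ligands and other receptors, INSR and IRS1 were tested. INSR was at 1.41, 1.30 and 1.51 FPKM in shCON and at 0.480, 0.809 and 0.645 FPKM in shPAX6, groups that did not overlap (-1.04 ± 0.27, limma adjusted p = 0.11). CISH, another STAT5-induced inhibitor, was at 0.779, 0.725 and 1.10 FPKM in shCON and at 0.153, 0.262 and 0.337 FPKM in shPAX6 (-1.48 ± 0.34, limma adjusted p = 0.084). On the other side, CCN1 was at 281 to 299 FPKM in shCON and at 387 to 474 FPKM in shPAX6 (0.60 ± 0.14, limma adjusted p = 0.085).

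CCN3 was at 0.354 to 0.356 FPKM in shCON and at 0.957 to 1.16 FPKM in shPAX6 (1.36 ± 0.25, limma adjusted p = 0.056). It passed with a pseudocount of 1 (limma, adjusted p = 0.049), quantile normalization (0.033), eBayes without a trend (0.016) and the GC correction (0.045), so an equal count of called genes under these settings need not mean the same genes. PIK3R2, a regulatory subunit of PI3K, had the lowest estimate, -1.85 ± 0.87, but its controls ran from 0.666 to 7.74 FPKM (limma adjusted p = 0.32). IRS1 was at 4.80 to 6.41 FPKM in shCON and at 2.00, 9.77 and 4.82 FPKM in shPAX6 (-0.29 ± 0.50, limma adjusted p = 0.82), the same spread by library as the receptors. IGF1 was listed at 0 in all 6 libraries and IGF2 at 0.0811 FPKM or less.

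**Figure D5:**
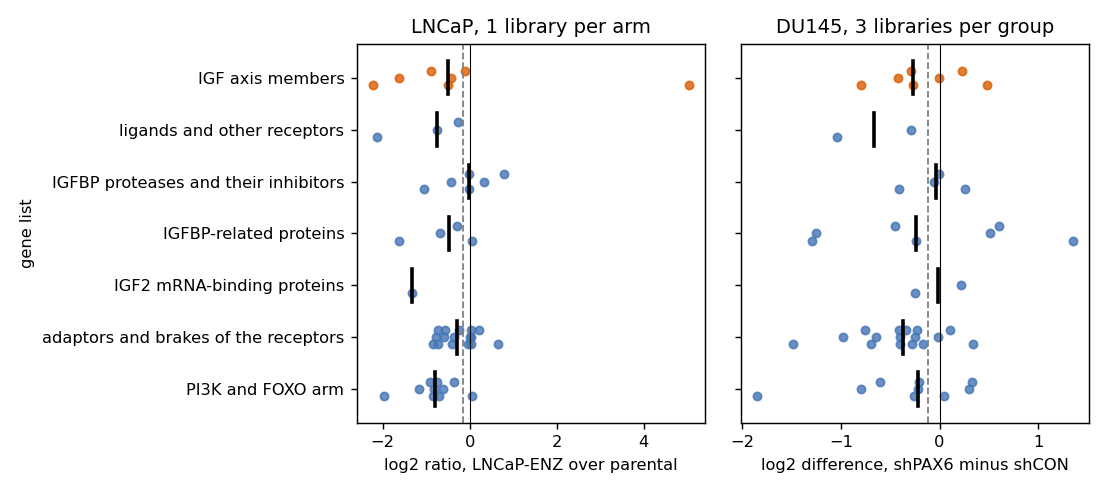
Log2 ratio of LNCaP-ENZ over parental cells (left, genes with a mean of at least 1 CPM) and log2 difference of shPAX6 minus shCON in DU145 (right, tested features), 1 point per gene, for the IGF axis members (orange) and 6 pathway lists (blue). Black ticks are list medians and dashed lines the medians over all genes (-0.15 and -0.12); IGFBP3 is the point at 5.04, and the PI3K and FOXO arm has 9 of 10 points below 0 in LNCaP.

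The identity of the lines and the depth behind these values were checked against markers. The LNCaP libraries held 20468001 and 17945722 counts. The luminal keratins KRT8 and KRT18 had 490 and 2806 counts in parental and 405 and 2454 in LNCaP-ENZ cells. The basal markers KRT5, KRT14 and TP63 summed to 4 and 0 counts in the same order, and leukocyte markers to 55 and 68. The endothelial list went from 348 to 30 counts, nearly all of it VWF (345 and 27), and the fibroblast list from 498 to 305, mostly COL1A1 (456 and 231), with 4 of its 7 genes at 0 in both. The other fibroblast or smooth muscle genes had higher ratios, with 36 and 57 counts of PDGFRB (log2 ratio 0.82, 0.23 to 1.50) and 6 and 17 of ACTA2 (1.41, 0.28 to 3.32), so the sum followed COL1A1. PAX6 had 11 and 4 counts in LNCaP, too few for a direction. In DU145 the keratins KRT8 and KRT18 were high, all 3 basal markers were listed at 0, and the fibroblast list summed to 1.35 to 2.50 FPKM in shCON and 1.49 to 2.25 FPKM in shPAX6. Same-group libraries correlated at 0.986 to 0.987 in shCON and at 0.930 to 0.974 in shPAX6 (Pearson, log2 scale, across features). The depth of the DU145 libraries is unknown, as their table holds no counts.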

How the data were processed

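RNA-seq tables were analysed for 2 LNCaP and 6 DU145 libraries, grouped by the sample labels. According to the methods of the study, poly(A) RNA was read with paired ends, aligned to GRCh37 with HISAT2 and quantified with StringTie; the labels describe another library kit and read length, and the methods speak of 3 replicates per line, whereas the labels and the table give 1 library per LNCaP arm. Whether that column is 1 of several replicates or a pool is not given in the sources used here. The LNCaP table deposited by the authors holds raw gene counts and TPM, and the DU145 table holds 1 value per feature and library, without a named unit, which the authors deposited and which is treated here as FPKM. The lowest DU145 values showed no shared step (752 low features compared), so no reads could be recovered and no count model was run. The DU145 values can therefore carry length and GC trends of single libraries.

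LNCaP counts were scaled by library total, compared as log2(CPM + 0.1) with exact Clopper-Pearson intervals at 95%, which cover counting error only, and counted as past 2-fold among genes with a mean of at least 1 CPM. DU145 values were tested as log2(FPKM + 0.1) with limma 3.58.1 (R 4.3.3; lmFit, eBayes with a trend) where a feature averaged 0.5 FPKM or more, two-sided, with Benjamini-Hochberg adjustment over all 13574 features and a threshold of 0.05. The pseudocount makes low genes look less changed. Scripts were tested on simulated data. TMM factors came from edgeR 4.0.16. GRCh37 positions of members are those of the LNCaP table, overlaps come from an annotation lifted to GRCh37, and promoter sequences come from RefSeq on GRCh38.p14, where 8 of the 10 members matched. No coordinates were converted.

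The members and gene lists were chosen with earlier results of these data known. Genes named are the 10 members, IGF1, IGF2, INSR, IRS1, PAX6, the pathway genes past the adjusted threshold and the 2 largest differences in each direction in DU145, the 3 largest ratios in each direction in LNCaP, and the 3 features most like IGFBP4. IGF2BP3, ADAM12, markers and neighbours of IGFBP3 were added after their values were seen where the rule did not hold them. Some genes of the lists are not reported here by name. Alternatives were other pseudocounts, filters and scalings, a replicate block, GC and length corrections, the deposited TPM and each DU145 library left out in turn.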

Additional observations from a re-analysis of the deposited data

How the results depend on the processing

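In LNCaP, the count of members past 2-fold was 3 to 4 and their median log2 ratio -0.58 to -0.34 over 8 alternatives. The 6 other pathway genes past 2-fold became 14 without the filter on low counts, which admits more genes. In DU145, no member was called as deposited; 1 was (IGFBP4) with the transcript length correction and 2 were (IGFBP4 and IGFBP6) with the GC and length correction, and the count ranged from 0 to 1 with a library left out, where IGFBP4 passed without shPAX6 library 1 or 2. The 2 other pathway genes called became 0 with median centring, 7 with the length correction, 8 with the GC and length correction, and 0 to 8 with a library left out: 0 without any 1 shCON library or shPAX6 library 3, 6 without shPAX6 library 1 and 8 without shPAX6 library 2. The median of the members, -0.27, became -0.0051 without the filter, 0.032 with the GC correction, 0.12 with the GC and length correction, and -0.42 to -0.083 with a library left out. Over the alternatives that kept all libraries, the difference ranged from -0.80 to -0.43 for IGFBP4 and from -0.42 to -0.21 for IGFBP3. IRS1 went from -0.29 to 0.29 without shPAX6 library 1, and its range with a library left out was -0.82 to 0.29. Over all features, 163 were called, 85.3% of them lower; 68.6% of calls were lower with quantile normalization, 72% with median centring, 55.0% with the GC correction, 57.2% of 911 with the length correction and 47.8% of 768 with the GC and length correction. The total of 163, and with it the share of all features called, rested on single libraries: it was 0, 5 and 0 without shCON library 1, 2 or 3 and 924, 899 and 10 without shPAX6 library 1, 2 or 3. The cause of these changes was not tested.

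Nothing in the labels says that libraries of the same replicate number belong together. Same-numbered libraries correlated at -0.17, -0.37 and 0.05 in their deviations from the group means. The deviations also followed transcript length and GC content in single libraries, so these values cannot show whether the libraries were paired. With the replicate number as a block, 0 features were called over the whole table (1568 at an unadjusted p under 0.05), 0 members and 0 other pathway genes. With the block and the GC correction, 0 members and 0 other pathway genes were called and the median of the members was 0.032.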

Other observations

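Chosen after the value of IGFBP3 was seen, the protein-coding genes within 1 Mb of it that had a count in LNCaP were read as well (GRCh37). ADCY1 had 184 and 277 counts in parental and LNCaP-ENZ cells, a log2 ratio of 0.77 (95% exact counting interval 0.51 to 1.06). TBRG4 had 1381 and 1823 counts (0.59, 0.49 to 0.69) and CCM2 had 530 and 629 counts (0.44, 0.27 to 0.61). MYO1G, with 15 and 13 counts, and NACAD, with 1 and 4, were too shallow for a direction. The ratio of IGFBP3, 5.04, was outside the intervals of the 3 deeper neighbours, whose own ratios were all above the median of all genes, -0.15. IGFBP3 was looked at here for its large ratio, so nothing is read from that distance. A shared change of the region was not tested.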
